A study of Mus musculus with 9 samples.

Results

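The Wnt signalling genes measured here were 19 Wnt ligands, 10 Frizzled receptors, the co-receptors Lrp5 and Lrp6, the R-spondins Rspo1, Rspo2 and Rspo3, and the intracellular effectors Axin1, Axin2, Apc, Ctnnb1 and Lef1. They were taken by name: every non-control spot of the array whose gene name is a numbered Wnt or Fzd gene, or one of these 10 others. The rule took 39 of 27599 genes, with 60 of 41174 probes on 87 of 43379 spots. No measured value entered the rule itself, but the members were chosen with earlier results of these data known. The 39 genes held 23 probes for Wnt ligands, 16 for Frizzled receptors, 2 for co-receptors, 5 for R-spondins and 14 for the intracellular effectors.

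The study asked how muscle progenitors made from pluripotent stem cells differ from adult satellite cells, which are the stem cells that reside in muscle, once they have been injected into a muscle and recovered from it. Each of 9 one-colour mouse arrays held 1 sample, in 3 groups of 3: re-isolated iPax3 cells, re-isolated iPax7 cells and adult satellite cells. In this field the names iPax3 and iPax7 stand for lines with an inducible Pax3 or Pax7 transgene; the labels do not describe the induction. All samples came from the tibialis anterior of 3 months-old mice, and for each the labels give 1500 cells, from 3 mice a line and 3 independent experiments, sorted directly into lysis buffer, after which the RNA was amplified to cDNA and labelled with Cy3. The iPax3 and iPax7 groups are labelled mononucleated cells of strain NSG/NSGmdx4cv, that is the host's strain: NSG mice are immunodeficient, and mdx4cv is a dystrophin mutation. The labels do not say which of the 2 hosts a sample came from, or which gate separated injected cells from cells of the host. The satellite cells came from the strain Pax7-ZsGreen, which carries a fluorescent Pax7 reporter. Strain, slide and scan day all differ between the re-isolated and the satellite samples, so their effects and that of the cell type cannot be told apart.

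Wnt ligands are secreted lipid-modified glycoproteins that bind a Frizzled receptor, and in the branch that works through β-catenin also Lrp5 or Lrp6. Binding inactivates a complex containing Axin and Apc that otherwise marks β-catenin for destruction, and β-catenin then acts in the nucleus with Lef1 and related Tcf factors. R-spondins strengthen the signal by sparing Frizzled receptors from turnover. In skeletal muscle Wnt signals are known to act on satellite cells during regeneration, and fibroblasts and fibro-adipogenic progenitors of the tissue also make components of the pathway.

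The probe sequences of 5 members carry the main comparisons and are shown 5′ to 3′ with their mm8 positions. The probe for Rspo3 at chr10:29194119-29195838 on the minus strand spans more genome than its own length, so it joins separate blocks of the gene. The probes for Fzd7 at chr1:59429069-59429128 and Fzd2 at chr11:102422389-102422448, both on the plus strand, are shown together because they overlap in sequence: capitals mark bases that are the same in both when the 2 are aligned without gaps. The probes for Wnt4 at chr4:136567851-136568419 and Lef1 at chr3:131194088-131212249, both on the plus strand and both across separate blocks, stand for a ligand whose groups did not overlap in either line and for the nuclear effector. No base is capitalised in these last 2 or in Rspo3.
Rspo3: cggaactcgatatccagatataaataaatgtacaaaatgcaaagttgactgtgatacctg
Fzd7: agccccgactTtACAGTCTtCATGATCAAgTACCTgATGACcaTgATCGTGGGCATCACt
Fzd2: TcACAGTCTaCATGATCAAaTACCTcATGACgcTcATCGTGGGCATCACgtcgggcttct
Wnt4: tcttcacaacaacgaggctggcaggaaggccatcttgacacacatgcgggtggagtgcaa
Lef1: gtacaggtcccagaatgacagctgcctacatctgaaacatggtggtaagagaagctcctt
The Fzd7 and Fzd2 probes shared 42 of 50 overlapping bases. Of 1258 pairs compared between probes of different member genes, the next most alike shared 30 bases, and the median pair shared 20. Probes of Apc, Fzd8 and Wnt8a were not among those compared. How far either probe also captured the other transcript was not tested.

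A level below is the log2 processed signal of a probe minus the 75th percentile of its array, and a difference is between means of such levels. A level can be compared between arrays but not between genes. A spot counts as measured where the scanner software flagged it as well above background. Of the 39 genes, 22 were measured on all 9 arrays by a single probe, and Axin2 was measured on none. In iPax3 cells 30 genes were measured on all 3 arrays by at least 1 probe, in iPax7 cells 29 and in satellite cells 24. No array measured Axin2 or Wnt3a in either re-isolated group, nor Axin2, Rspo2 or Wnt2 in satellite cells.

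Some arrays stood apart before any comparison. The share of all probes above background was 69.1% to 77.3% in iPax3, 56.5% to 73.1% in iPax7 and 56.7% to 79.7% in satellite cells. Satellite 1 had the highest share, and of the 60 member probes it measured 46 against 32 and 37 on satellite 2 and 3. It was scanned on a day of its own, and its mean correlation with the re-isolated arrays was 0.67, against 0.58 and 0.57 for satellite 2 and 3. Array iPax7 1 had the lowest share. It was also highest in the summed level of the endothelial markers (6.0, against 2.28 to 4.43 on the other re-isolated arrays) and of the leukocyte markers (4.18, against 1.58 to 2.77). This was not particular to those lists. Among re-isolated arrays iPax7 1 was also highest for satellite cell (6.43), fibro-adipogenic (10.26), pericyte or smooth muscle (6.95) and muscle fibre markers (5.14). It was not highest for tenocyte (3.89) or Schwann or glial markers (4.31). Values without satellite 1 or iPax7 1 are given beside the results of named members that they move most.

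The cell type markers bear on every comparison below. Of 14 satellite cell markers 13 were tested, and their median difference was -2.95 in iPax3 and -3.11 in iPax7 against satellite cells; the log2 of their summed signal was 5.59 to 5.92 in iPax3, 5.26 to 6.43 in iPax7 and 7.6 to 8.22 in satellite cells. Pax7 itself stood at 2.89, 3.53 and -0.66 in satellite cells and between -3.9 and -0.53 in re-isolated cells. It did not pass in limma's moderated test (adjusted p = 0.195 in iPax3 and 0.108 in iPax7). At an adjusted p under 0.05, 4 of 15 fibro-adipogenic or fibroblast markers were called higher in iPax3 and 5 in iPax7. Over all genes 0.432% and 0.533% were called in either direction. The 15 markers had median differences of 4.02 and 4.91. Their summed level was 8.94 to 9.88 in iPax3, 9.33 to 10.26 in iPax7 and 6.49 to 7.5 in satellite cells, and every tested gene of both lists was above background on at least 1 array of each group. Of the other lists, 1 satellite cell marker was called lower in each line and 1 tenocyte marker higher in iPax3. For both lines together 8 fibro-adipogenic markers and 1 tenocyte marker were called higher. Called lower were 3 satellite cell and 2 pericyte or smooth muscle markers, against 1.04% of all genes called. Median differences in iPax3 and iPax7 were 2.33 and 1 for tenocyte markers, -1.54 and 0.27 for endothelial, -1.36 and -0.81 for pericyte or smooth muscle, -0.03 and -0.02 for leukocyte, -1.33 and -1.34 for Schwann or glial, and -0.09 and -0.08 for muscle fibre markers. The part of these cell types in the Wnt results was not tested. In bulk samples, fewer cells of a type and less RNA per cell cannot be told apart.

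**Figure D1:**
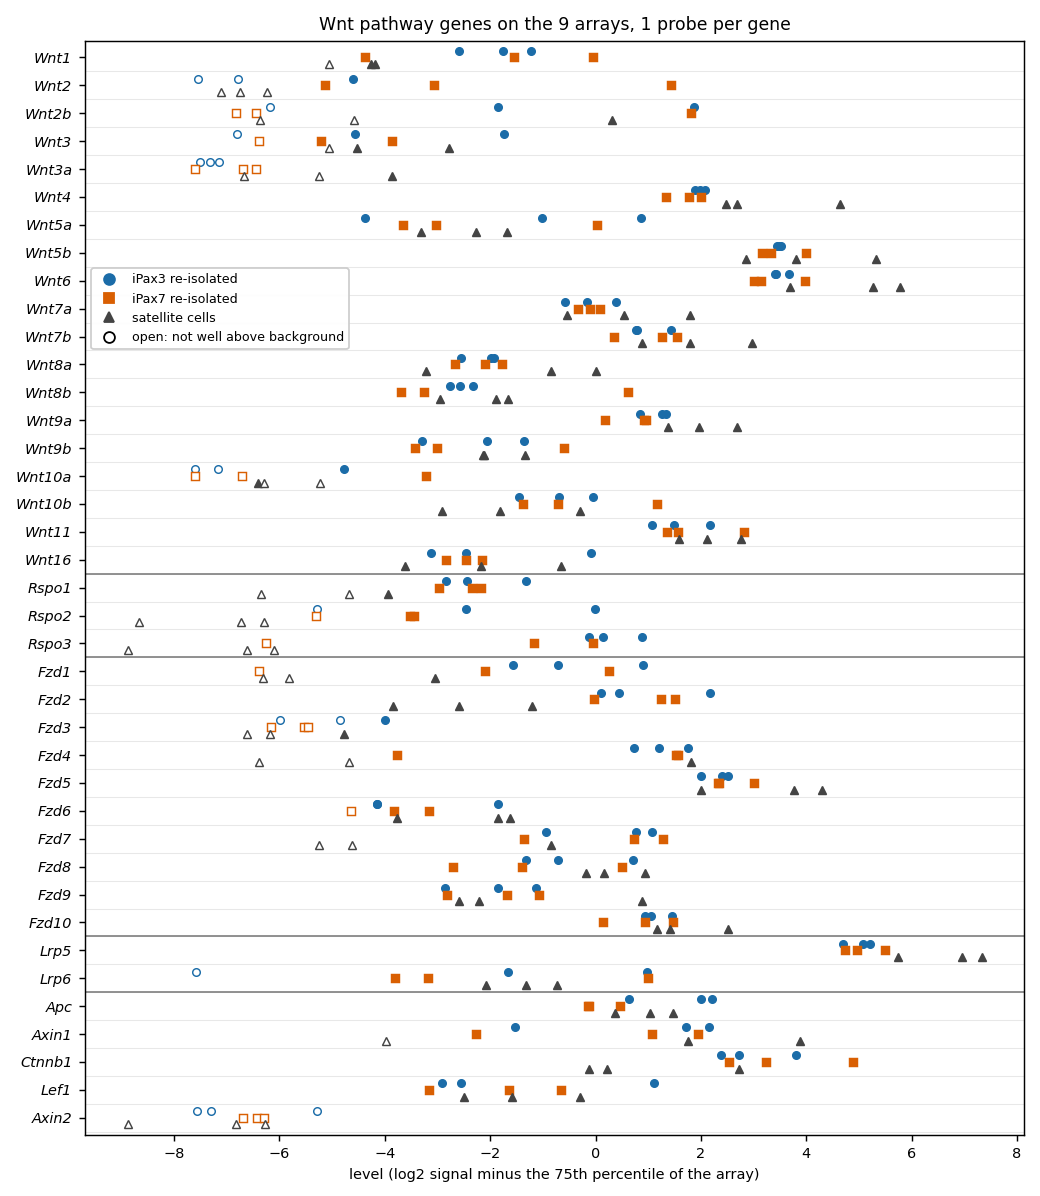
Level of each member gene (log2 signal minus the array's 75th percentile, horizontal) on every array, for the probe that stands for the gene, with open symbols where the spot was not well above background and grey lines between the roles. Points are to be compared along a row: for Rspo1, Rspo2 and Fzd2 all re-isolated arrays lie to the right of the satellite arrays, for Lrp5, Wnt4 and Wnt9a to the left, and Axin2 is open throughout.

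Against satellite cells, the R-spondins and 4 Frizzled genes were higher by value in both lines and Wnt2 in iPax7, while Lrp5, Wnt4 and Wnt9a were lower by value in both. The other 5 tested Frizzled genes were lower in both, and further probes of Rspo3 and Fzd8 gave the opposite order. Rspo2, Rspo3 and Wnt2 were kept for testing through re-isolated arrays alone, so their positive sign follows from that filter. None of the 36 members that could be tested passed an adjusted p of 0.05 in limma's moderated test with Benjamini-Hochberg adjustment over all 22695 genes. That was so for iPax3 minus satellite, where 0.432% of all genes were called, for iPax7 minus satellite with 0.533%, for the mean of both lines minus satellite with 1.04%, and for iPax7 minus iPax3 with 0%. At an unadjusted p under 0.05 there were 8 members in iPax3 (22.2% of members against 12.4% of all genes), 9 in iPax7 (25% against 12.4%) and 10 for both lines together (27.8% against 15.4%). Both lines share the satellite arrays, so these counts are not separate support. Axin2, Fzd3 and Wnt3a were not tested, because no probe of theirs was above background on 3 arrays.

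In iPax3 cells 17 members were higher and 19 lower than in satellite cells, with a median difference of -0.31 against -0.19 over all genes and a range of -1.68 to 7.51. In iPax7 cells 14 were higher and 22 lower, with a median of -0.35 against -0.15 and a range of -1.61 to 4.71. For 6 members all 3 iPax3 arrays lay above all 3 satellite arrays (16.7%, against 8.61% of all genes), and for 4 all lay below (11.1%, against 10.4%). In iPax7 the counts were 4 above (11.1%, against 7.63%) and 3 below (8.33%, against 8.89%). With all 6 re-isolated arrays set against the 3 satellite arrays, 3 members lay wholly above (8.33%, against 4.14%) and 3 wholly below (8.33%, against 4.36%). Rspo2, Rspo3 and Wnt2 passed the filter on dim probes through re-isolated arrays alone, so that a positive difference for them follows from the filter. Rspo2 is among the members counted as wholly above in each of these comparisons, Rspo3 in iPax3 and Wnt2 in iPax7, so no excess over all genes is read from those counts or from the counts by unadjusted p. The arrays are treated as independent samples, and with 3 a group their number limits the precision.

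**Figure D2:**
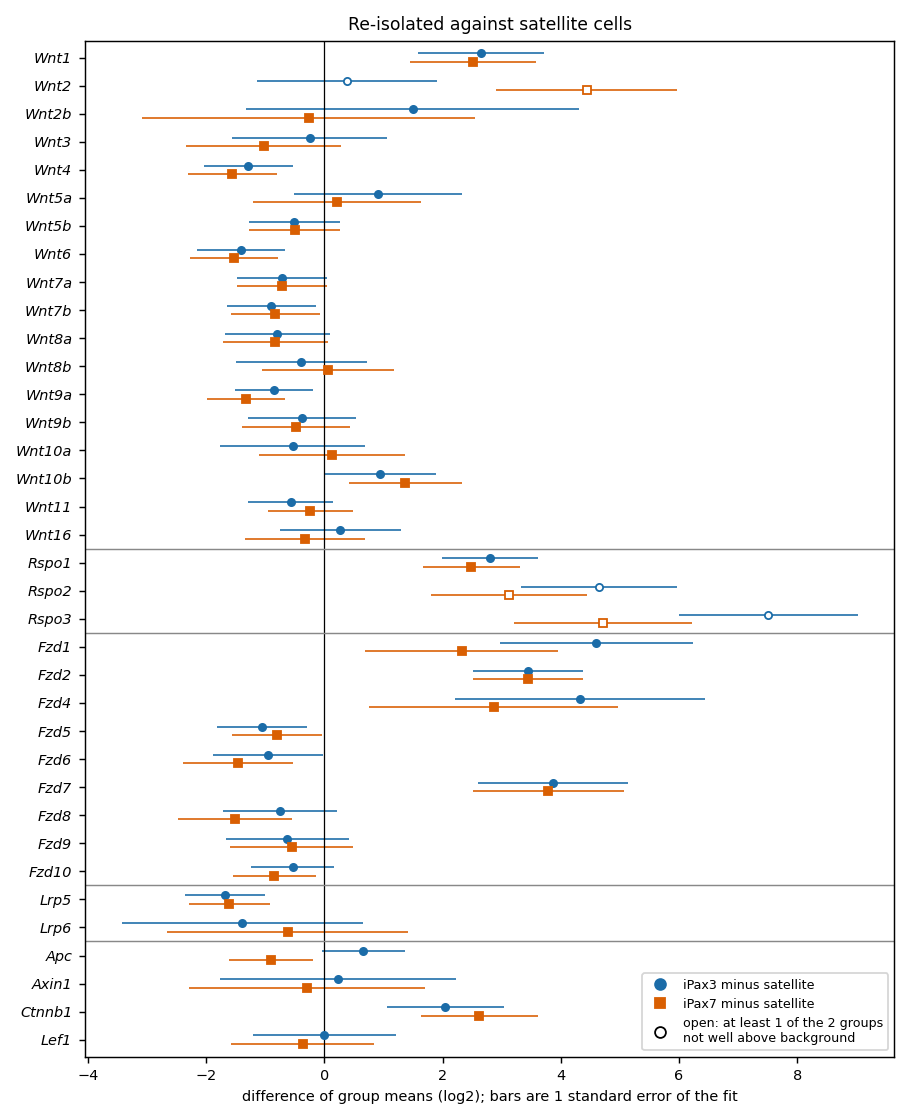
Difference of group means on the log2 scale (horizontal) for each tested member gene, iPax3 minus satellite as circles and iPax7 minus satellite as squares, with bars of 1 standard error from the fit and open symbols where all 3 arrays of a group were not well above background. The R-spondins and Fzd1, Fzd2, Fzd4 and Fzd7 lie right of 0 in both lines and the other Frizzled genes left of it. Both lines are set against the same satellite arrays.

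The 3 R-spondins were higher by value in both lines. Rspo3, secreted by stromal and endothelial cells and a strong enhancer of Wnt signals, stood at 0.89, -0.12 and 0.15 on the iPax3 arrays, at -6.26, -0.04 and -1.17 on the iPax7 arrays and at -8.88, -6.11 and -6.61 on the satellite arrays. No satellite array measured it, and iPax7 1 did not either, so the 3 iPax3 arrays lay clear of the satellite arrays while the iPax7 arrays overlapped them. Rspo3 was at least 44.8-fold higher in iPax3 than in satellite cells (fitted difference 7.51 ± 1.51 SE, adjusted p = 0.0848) and at least 6.45-fold higher in iPax7 (4.71 ± 1.51, adjusted p = 0.261). Such a bound sets the brighter group's mean against the lowest signal that counted as above background on each dim array. For both lines together it was at least 17-fold higher (6.11 ± 1.31, adjusted p = 0.073), and its call depended on 1 array: the adjusted p without iPax7 1 was 0.0117. Without that array, which enters the estimate of the spread, the adjusted p for iPax3 minus satellite was 0.0205, and with only the iPax3 and satellite arrays in the fit it was 0.0458. Since no satellite array measured Rspo3, its positive sign follows from the filter on dim probes in all of these fits, and they are given only for that dependence.

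A further Rspo3 probe, at chr10:29142352-29142410 on the minus strand, gave the opposite order. It stood at -5.89, -6.55 and -5.87 in iPax3 and at -6.15, -6.45 and -5.86 in iPax7, on none of which it was above background. In satellite cells it stood at -2.98, -2.55 and -5.27, and it was measured on the first 2. Since it was above background on 2 of 9 arrays it was not tested, and the statements on Rspo3 above hold for the probe shown.

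Rspo1, an R-spondin known to act through Lgr receptors, stood at -2.43, -2.83 and -1.31 in iPax3, at -2.35, -2.98 and -2.18 in iPax7 and at -3.94, -4.68 and -6.34 in satellite cells. All 6 re-isolated arrays lay above the 3 satellite arrays, of which satellite 1 alone measured it. The differences were 2.80 ± 0.82 in iPax3 (adjusted p = 0.215) and 2.48 ± 0.82 in iPax7 (adjusted p = 0.271), and neither passed.

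Rspo2, which is needed for limb and lung development in mice, stood at -0.01, -5.28 and -2.46 in iPax3, at -3.53, -5.3 and -3.45 in iPax7 and at -8.67, -6.29 and -6.72 in satellite cells. It was measured on 2 arrays of each re-isolated group and on no satellite array, and the groups did not overlap by value. The lowest level that counted as above background was -4.14 on satellite 2 and -4.66 on satellite 3. The unmeasured iPax3 2 and iPax7 2 lay below both, so their order against these arrays is not resolved. By group means Rspo2 was at least 6.05-fold higher in iPax3 (4.64 ± 1.32, adjusted p = 0.2) and at least 2.12-fold higher in iPax7 (3.13 ± 1.32, adjusted p = 0.384). As no satellite array measured Rspo2, its positive sign follows from the filter on dim probes. Its other probe was above background on 2 of the 9 arrays, iPax3 1 and iPax7 3.

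The size of all 3 R-spondin differences depended on the processing. The normexp correction was run with an offset of 50 added to every intensity, which by itself narrows log2 differences at dim spots. How much of the change came from the offset was not tested. With the normexp correction the difference for both lines together was 0.36 for Rspo1, 0.42 for Rspo2 and 2.12 for Rspo3, against 2.64, 3.89 and 6.11. In the authors' deposited table the corresponding differences were 1.25, 1.38 and 3.37.

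Of the Frizzled receptors 9 were tested: Fzd1, Fzd2, Fzd4 and Fzd7 were higher in both lines and Fzd5, Fzd6, Fzd8, Fzd9 and Fzd10 lower. Fzd2, a receptor used by Wnt5a among others, stood at 2.17, 0.11 and 0.44 in iPax3, at 1.24, -0.03 and 1.51 in iPax7 and at -1.2, -3.84 and -2.59 in satellite cells. It was measured on all 9 arrays, and every re-isolated array lay above every satellite array. The difference was 3.45 ± 0.93 in each line, with adjusted p-values of 0.177 in iPax3 and 0.187 in iPax7, and 3.45 ± 0.8 for both together (adjusted p = 0.0936). Without satellite 1 the last was 4.12 and passed (adjusted p = 0.0417), and with the normexp correction it was 2.24.

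Fzd7, the receptor through which Wnt7a is reported to act on mouse satellite cells, stood at 1.08, -0.94 and 0.76 in iPax3 and at 1.28, -1.36 and 0.74 in iPax7. In satellite cells it stood at -0.85, -4.62 and -5.24 and was measured on satellite 1 alone. That array lay above iPax3 2 and iPax7 2, so the groups overlapped. The differences were 3.87 ± 1.27 in iPax3 (adjusted p = 0.271), 3.79 ± 1.27 in iPax7 (adjusted p = 0.276) and 3.83 ± 1.1 together (adjusted p = 0.159). With the normexp correction the last was 1.67. Without satellite 1 it was 5.19 and passed (adjusted p = 0.0285), but neither remaining satellite array measured Fzd7. Its positive sign in that fit therefore follows from the filter on dim probes. In the same fit 689 of all genes were called, against 236 with all arrays.

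Fzd2 and Fzd7 each had a further probe. That of Fzd7, which was higher by value too, at chr1:59430894-59430953, stood at -5.24, -3.19 and 1.25 in iPax3, at -0.1, -1.33 and -1.51 in iPax7 and at -2.75, -6.01 and -5.06 in satellite cells. The further Fzd2 probe, at chr11:102423821-102423880, was above background on 3 re-isolated arrays and no satellite array, so its direction follows from the filter on dim probes. Neither of these lies in the stretch that the first 2 probes have in common.

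Fzd1 and Fzd4 followed the same order less evenly. Fzd1 stood at -1.57, -0.71 and 0.9 in iPax3, at -6.38, -2.09 and 0.25 in iPax7 and at -3.04, -6.31 and -5.82 in satellite cells. The iPax3 arrays lay above all satellite arrays (4.60 ± 1.63, adjusted p = 0.308), whereas iPax7 1 was not above background and lay below them. The Fzd1 difference in iPax7 was 2.32, and it was 4.14 without iPax7 1 and 0.82 without iPax7 3. Fzd4, the receptor that also binds norrin, stood at 1.21, 0.73 and 1.76 in iPax3, at -3.76, 1.56 and 1.52 in iPax7 and at 1.82, -6.39 and -4.68 in satellite cells. Satellite 1 was the highest of the 9 arrays for Fzd4 while satellite 2 and 3 were not above background. The Fzd4 difference for both lines together was 3.59 ± 1.83 (adjusted p = 0.388) and 6.04 without satellite 1 (adjusted p = 0.0717). In iPax7 alone it was 2.86, and it was 4.62 without iPax7 1, 5.31 without satellite 1 and 1.2 without satellite 2. Without satellite 1 no satellite array measured Fzd4, so the positive sign in those fits follows from the filter on dim probes.

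The 5 lower Frizzled genes differed by -1.05 to -0.54 in iPax3 and by -1.51 to -0.55 in iPax7, with no adjusted p below 0.555. Fzd5, at 2.4, 2 and 2.52 in iPax3, 3.01, 2.34 and 2.33 in iPax7 and 2.01, 4.3 and 3.77 in satellite cells, was lower by both of its probes. Satellite 1 lay within the re-isolated values for Fzd5, and without it the difference for both lines together was -1.60 in place of -0.92. The other Fzd8 probe was higher by value in both lines (1.48 in iPax3 and 1.45 in iPax7). It was above background on iPax3 2 and iPax7 3 alone and was not tested. Fzd10 was measured on all 9 arrays by 1 probe and on none by its other, and Fzd3 was measured on 3 arrays over both of its probes.

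**Figure D3:**
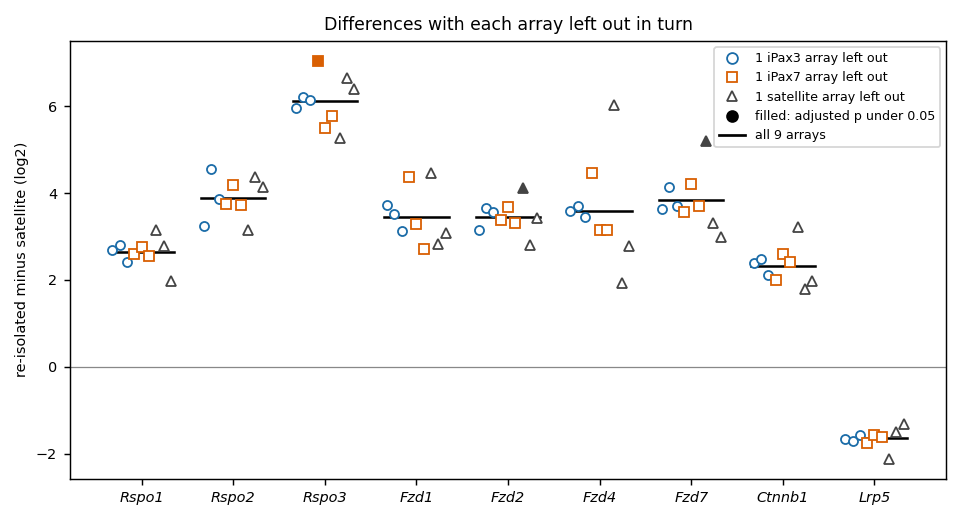
Difference between the re-isolated groups (mean of iPax3 and iPax7) and satellite cells on the log2 scale (vertical) for 9 member genes, as a line with all 9 arrays and as points with 1 array left out at a time, filled where the adjusted p was under 0.05. Without satellite 1, Fzd2 (4.12) and Fzd7 (5.19) passed, though neither remaining satellite array measured Fzd7. Without iPax7 1, Rspo3 is filled, by the probe that stands for it, which no satellite array measured. No other point is.

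Of the co-receptors, Lrp5 was lower by value in both lines and Lrp6 kept no direction. Lrp5, which with Lrp6 carries the signal from Frizzled to β-catenin, stood at 5.08, 5.21 and 4.7 in iPax3, at 5.5, 4.74 and 4.96 in iPax7 and at 5.74, 6.96 and 7.33 in satellite cells. Every re-isolated array lay below every satellite array. The differences were -1.68 ± 0.68 in iPax3 (adjusted p = 0.365), -1.61 ± 0.68 in iPax7 (adjusted p = 0.386) and -1.65 ± 0.59 together (adjusted p = 0.244). Lrp6 stood at -7.59, 0.97 and -1.67 in iPax3, at -3.18, 0.99 and -3.8 in iPax7 and at -1.31, -0.73 and -2.08 in satellite cells. The re-isolated arrays for Lrp6 lay on both sides of the satellite arrays, and iPax3 1 did not measure it. Without iPax3 1 the Lrp6 difference turned from -1.39 to 1.02 in iPax3 and from -1.01 to 0.2 for both lines together, and in iPax7, at -0.62, it ranged from -2.12 to 0.28 with 1 array left out.

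Of the Wnt ligands 18 were tested, and 12 were lower by value than in satellite cells in each line, with median differences of -0.45 in iPax3 and -0.41 in iPax7. Over all 22695 genes 12423 were lower in iPax3 and 12282 in iPax7, so a lower value is also the more common one in general. Wnt4, a ligand that muscle fibres are known to make, stood at 1.88, 1.98 and 2.08 in iPax3, at 1.78, 1.33 and 2.01 in iPax7 and at 2.47, 2.69 and 4.65 in satellite cells. All 6 re-isolated arrays lay below the 3 satellite arrays, and satellite 3 was well above the other two. The differences were -1.29 ± 0.75 in iPax3 (adjusted p = 0.5) and -1.56 ± 0.75 in iPax7 (adjusted p = 0.44), and without satellite 3 they were -0.60 and -0.87.

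Wnt9a likewise lay lower on all re-isolated arrays, at 1.34, 1.26 and 0.84 in iPax3, 0.92, 0.18 and 0.96 in iPax7 and 1.38, 1.96 and 2.69 in satellite cells. Its difference for both lines together was -1.09 ± 0.57 (adjusted p = 0.398). Wnt6, which is expressed in epithelia and known for its role beside developing somites, stood at 3.43, 3.67 and 3.41 in iPax3, at 3.98, 3.15 and 3 in iPax7 and at 3.7, 5.27 and 5.77 in satellite cells. Satellite 1 lay among the re-isolated arrays for Wnt6, and the other two above them. The Wnt6 difference for both lines together was -1.47 ± 0.64 (adjusted p = 0.319), and its other probe was lower too, at -0.53, -0.55 and -1.2 in iPax3, -0.52, -0.96 and -1.03 in iPax7 and -0.15, 1.41 and 2.22 in satellite cells.

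Against this, Wnt1, a ligand of the β-catenin branch that patterns the dorsal neural tube and somites, was higher by value. It stood at -1.22, -2.59 and -1.75 in iPax3, at -0.05, -1.55 and -4.38 in iPax7 and at -4.18, -5.06 and -4.26 in satellite cells. All iPax3 arrays lay above the satellite arrays (2.65 ± 1.07, adjusted p = 0.36), while iPax7 3 lay below 2 of them (2.51 ± 1.07, adjusted p = 0.388). Without iPax7 1, the highest array for Wnt1, the iPax7 difference was 1.54. With the normexp correction the difference for both lines together was 0.84 in place of 2.58.

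Wnt2, a ligand of fibroblasts and endothelium in several organs, was the ligand with the widest difference between the lines. It stood at -7.54, -4.6 and -6.78 in iPax3, at 1.44, -3.06 and -5.14 in iPax7 and at -7.1, -6.23 and -6.75 in satellite cells. All iPax7 arrays measured it, 1 iPax3 array did and no satellite array did. By group means Wnt2 was at least 7.59-fold higher in iPax7 than in satellite cells (4.44 ± 1.53, adjusted p = 0.29). The lowest level that counted as above background was -4.14 on satellite 2 and -4.66 on satellite 3, and iPax7 3 lay below both. Without iPax7 1 the difference was 2.59, and no bound was computed for that fit. Since no satellite array measured Wnt2, its positive sign follows from the filter on dim probes.

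The remaining ligands differed from satellite cells by less than 1.5 in each line. Wnt10b, known to hold back fat cell formation, was at -0.73 ± 0.7 (SD, n = 3) in iPax3, -0.31 ± 1.32 in iPax7 and -1.67 ± 1.31 in satellite cells. Wnt7a, known for the expansion of mouse satellite cells, was at -0.12 ± 0.49, -0.12 ± 0.21 and 0.6 ± 1.17 in the same order. Wnt5a, the main ligand of the planar polarity branch, was at -1.51 ± 2.65, -2.21 ± 1.97 and -2.42 ± 0.83, and Wnt11, of the same branch, was at 1.59 ± 0.56, 1.91 ± 0.8 and 2.16 ± 0.59. For each of these 4 the groups overlapped. Wnt5b was the most even member in iPax3, with an SD of 0.05 around a mean of 3.48, and Wnt2b the most uneven in iPax7, with an SD of 4.89. The median SD within a group was 0.82 for members in iPax3, 1.13 in iPax7 and 1.18 in satellite cells, against 0.88, 1.03 and 1.26 over all genes.

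**Figure D4:**
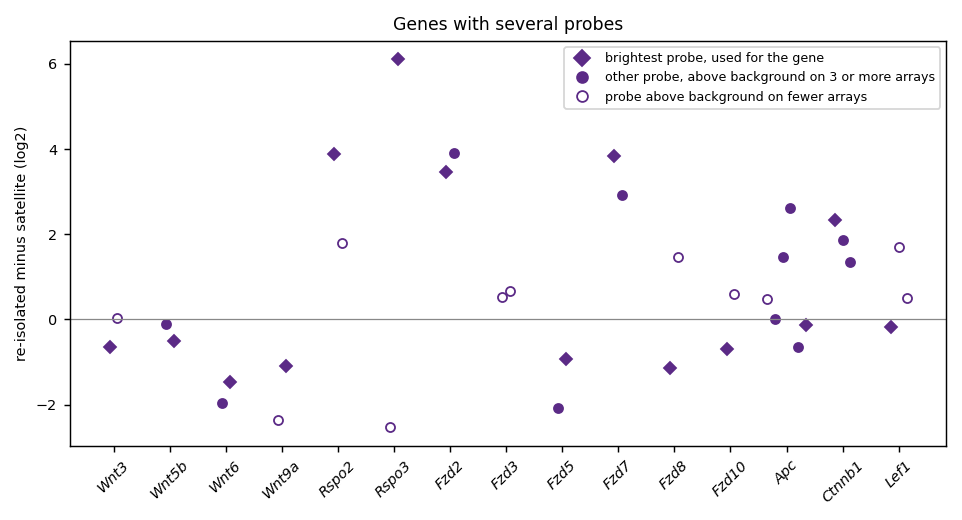
Difference between the re-isolated groups (mean of iPax3 and iPax7) and satellite cells on the log2 scale (vertical) for every probe of the 15 member genes that had several probes, with diamonds for the brightest probe, which stands for the gene, and open circles for probes above background on fewer than 3 arrays. The probes of Ctnnb1, Fzd7 and Wnt6 lie on the same side of 0 within each gene, while those of Rspo3, Apc, Fzd8, Fzd10, Lef1 and Wnt3 lie on both sides.

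Among the intracellular effectors 4 of 5 were tested. Ctnnb1, which encodes β-catenin, stood at 2.73, 2.39 and 3.81 in iPax3, at 4.89, 2.53 and 3.24 in iPax7 and at 2.72, -0.12 and 0.21 in satellite cells. Satellite 1 lay among the re-isolated arrays and the other two below them. The differences were 2.04 ± 0.99 in iPax3 (adjusted p = 0.431), 2.62 ± 0.99 in iPax7 (adjusted p = 0.336) and 2.33 ± 0.85 together (adjusted p = 0.251). All 3 Ctnnb1 probes were higher by value in both lines. One of the other 2, at chr9:120808854-120808913, stood at 1.43, -6.21 and 4.88 in satellite cells. Satellite 2 did not measure that probe and satellite 3 was the highest of the 9 arrays, so its direction rested on satellite 2. For the probe that stands for Ctnnb1, the difference for both lines together was 3.22 without satellite 1 (adjusted p = 0.0766).

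Axin2, a direct target of β-catenin that also limits the signal, had 1 probe, which was above background on none of the 9 arrays, with levels from -8.88 to -5.29. It therefore gave no comparison between the groups. Lef1, the nuclear partner of β-catenin and itself a common target, stood at -2.91, -2.55 and 1.11 in iPax3, at -1.64, -3.16 and -0.66 in iPax7 and at -2.49, -1.58 and -0.29 in satellite cells. The 3 groups overlapped for Lef1, with a difference for both lines together of -0.18 ± 1.05 (adjusted p = 0.949). Of its other 2 probes, 1 was above background on iPax3 3 alone, at 0.45, and the other on no array.

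Apc, a scaffold of the destruction complex, stood at 2.21, 0.63 and 2.01 in iPax3, at -0.13, 0.46 and -0.14 in iPax7 and at 1.03, 1.48 and 0.37 in satellite cells. The iPax7 arrays lay below the iPax3 arrays, and the satellite arrays overlapped both. Its 5 probes that passed the filter disagreed, with 3 higher and 2 lower in re-isolated than in satellite cells. Axin1, the limiting scaffold of the complex, stood at 1.72, -1.52 and 2.16 in iPax3, at -2.26, 1.07 and 1.95 in iPax7 and at 1.76, -3.97 and 3.88 in satellite cells, so that the 3 groups overlapped.

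Between the 2 re-isolated lines, 1 of 36 members had an unadjusted p under 0.05 (2.78%, against 4.1% of all genes), none lay wholly higher in iPax7 (4.45% of all genes did) and 1 wholly lower (2.78%, against 4.89%). The first was Wnt2, with a difference of 4.05 ± 1.53 (adjusted p = 1), and without iPax7 1 it was 2.21. The second was Apc, lower in iPax7 by its brightest probe (-1.55 ± 0.71, adjusted p = 1), although 3 of its 5 probes were higher. Rspo3 differed by -2.80 ± 1.51 (adjusted p = 1), and by -0.91 without iPax7 1. One slide held all iPax3 arrays and iPax7 1, and within it the difference of that array from the iPax3 mean was 7.75 for Wnt2, -1.75 for Apc and -6.57 for Rspo3. The other iPax7 arrays shared a slide with no iPax3 array.

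Among other genes of the pathway, the calls fell on Daam1 and on secreted modulators. Of 3 Wnt secretion genes, 15 tested of 16 intracellular transducers, 13 nuclear factors and 8 genes of receptor turnover, none was called in any of the 4 comparisons. Gsk3b, a kinase of the destruction complex, stood at 2.01, -0.09 and 1.7 in iPax3, at 2.15, 0.47 and 0.53 in iPax7 and at -0.53, -2.99 and -2.29 in satellite cells, a difference of 3.07 ± 0.81 for both lines together (adjusted p = 0.138). Tcf7l2, a DNA-binding partner of β-catenin, stood at 4.79, 3.78 and 3.21, at 3.04, 3.93 and 1.88 and at 1.68, 0.43 and 0.93 in the same order (2.42 ± 0.69, adjusted p = 0.159). For both genes all re-isolated arrays lay above all satellite arrays, whereas Bcl9l, a co-activator of β-catenin, was lower (-2.39 ± 0.76, adjusted p = 0.198).

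Of 18 genes of the branches that do not use β-catenin, 1 was called, for both lines together, where 1.04% of all genes were. Daam1, a formin that links Dishevelled to the actin cytoskeleton, stood at 3.23, 3.38 and 2.39 in iPax3, at 4.28, 3.09 and 3.79 in iPax7 and at 0.35, -1.99 and -4.9 in satellite cells. It was higher in both lines together by 5.54 ± 1.04 (adjusted p = 0.0449), and did not pass in iPax3 (adjusted p = 0.124) or iPax7 (adjusted p = 0.0833) alone. Of 16 secreted modulators 12 were tested. Called higher were 2 in iPax3, 3 in iPax7 and 3 for both lines together, against 0.432%, 0.533% and 1.04% of all genes. The antagonists Dkk2 (adjusted p = 0.0026 in iPax3 and 0.00199 in iPax7) and Sfrp1 (0.0158 and 0.0111) were called higher in both lines, with differences of 9.24 in iPax3 and 9.67 in iPax7 for Sfrp1, which satellite 1 alone of the satellite arrays measured. Sfrp2, which also binds Wnt ligands, was called higher in iPax7 (adjusted p = 0.0339) and for both lines together (adjusted p = 0.0213). It was not called in iPax3 (adjusted p = 0.0795). No satellite array measured Dkk2 or Sfrp2, so both passed the filter through re-isolated arrays alone, their direction follows from it, and no size is given. For the same reason no excess over all genes is read from the counts of called modulators.

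Of 17 common targets of β-catenin signalling 15 were tested and none was called, with 7 higher in iPax3, 2 higher in iPax7 and median differences of -0.29 and -0.66. Nkd2, a target that restrains the pathway, had the smallest p of them between the lines. It stood at -0.02, -0.04 and 0.25 in iPax3, at -2.54, -4.86 and -4.77 in iPax7 and at -5.2, -2.61 and -1.81 in satellite cells. The iPax3 arrays lay above all others, and the difference between iPax7 and iPax3 was -4.12 ± 1.02 (adjusted p = 0.828). Ccn5, a matricellular protein, differed by -1.69 ± 0.67 for both lines together (adjusted p = 0.282).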

How the data were processed

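Per the file headers, the deposited scanner files were made with Agilent Feature Extraction 10.5.1.1 and give the processed intensity of each spot on 1-colour arrays, with the flag for signal well above background; the submitters' processing notes name limma. The authors' deposited series table holds log2 values for 31918 spots; its columns correlated with the scanner's log2 mean signal at 0.9875 to 0.9993, with medians of 7.633 to 7.709, and its normalization is not given in the sources used here. Probe positions are those of the file, on mm8.

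The log2 processed intensity was scaled to the 75th percentile of each array. Probes above background on at least 3 of 9 arrays were kept (32952 probes, 47 of the 60 member probes), and the brightest stood for a gene. All 22695 genes were fitted with limma 3.58.1 in R 4.3.3, 1 mean per group, with Benjamini-Hochberg adjustment at 0.05 and 6 residual degrees of freedom. Saturated spots numbered 0, and 60 to 342 outlier spots an array were left out. The fit was also run on simulated arrays, drawn independently with no slide or scan day effect and no background floor. That run therefore does not bear on those features of the data. Genes of other lists were named through the RefSeq table of GRCm38.p6, and 2 probes that it assigns to Fzd3 and Lrp6 under other file names were kept apart.

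The members, pathway lists and cell type markers were chosen with earlier results of these data known. Array values are given for members called, for those whose groups do not overlap and differ by at least 2, for Axin2, Lef1, Ctnnb1, Apc, Lrp5 and Lrp6, and, chosen after their values were seen, for the other Frizzled and Wnt genes shown. Of other lists, called genes and at most 3 with the smallest p were named. Samples with the same replicate number did not deviate together (correlations of -0.129 to 0.0625), so the numbers do not pair them. The labels name independent experiments but do not tie them to arrays, so a p-value here reflects how far these arrays spread, which may in part be technical.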

Additional observations from a re-analysis of the deposited data

How the results depend on the processing

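Other settings, 11 in number, and 9 fits without 1 array each were run. Of the 36 members, none of them called in the comparisons as reported, 24 kept their sign in every setting for iPax3 minus satellite, 23 for iPax7 minus satellite, 24 for both lines together and 8 for iPax7 minus iPax3. Rspo2 and Rspo3 are counted in each comparison with satellite cells, and Wnt2 in iPax7 and in both lines together. Their sign there follows from the filter on dim probes. The share over all genes was not computed, so no stability particular to the members is read from these counts. The number of members called was 0 except for Rspo3 in iPax3 with only the groups compared (1), and without 1 array, where it ranged from 0 to 1 in iPax3 and from 0 to 2 for both lines together.

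The count of all genes called moved much more. For iPax3 it was 98, and 186 with the deposited table, 56 with only the groups compared, 14 with slide and 27 with scan day as a random block, and 19 to 451 without 1 array. For iPax7 it was 121, and 76 with probes above background on all 9 arrays, 196 with the deposited table, 38 with only the groups compared, 43 with slide, 36 with scan day, and 35 to 487 without 1 array. For both lines together it was 236, and 47 with slide, 43 with scan day and 75 to 689 without 1 array. The highest counts, 451, 487 and 689, were those without satellite 1; the cause was not tested. For iPax7 minus iPax3 it was 0, and 1 with quantile normalization, with the mean over a gene's probes and with slide as a random block.

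With a replicate block the counts were 37, 55 and 115 for iPax3, iPax7 and both lines, and 0 between the lines; no member was called. The block rests on a shared number only.

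Normexp correction with its offset of 50 moved the median of all genes in iPax3 from -0.19 to -0.31. It gave smaller differences for the R-spondins, Fzd1, Fzd2, Fzd4 and Fzd7. With quantile normalization another probe was brightest for Apc, and the iPax3 difference was 2.16 in place of 0.66. The deposited table held 35 members. Rspo3, Fzd7 and others with dim satellite spots could not be fitted where all 9 arrays had to be above background.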
